A study of Canis lupus familiaris with 15 samples.

Results

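Solute carriers are membrane proteins that move nutrients, ions, vitamins, nucleotides and drugs across the cell surface or the membranes of organelles. They are grouped into numbered families, and most of their gene symbols start with SLC and the family number. Some run with a solute's own gradient, whereas others draw on sodium or proton gradients that ATP-driven pumps build. In tumour cells they set the supply of glucose, amino acids and vitamins for growth. Every gene on the array whose symbol starts with SLC and a digit was taken, which gave 89 of the 5246 genes with a symbol, from 117 of 22176 probes. Carriers with other symbols were left out of these counts, and some of them appear in the lists of other transport genes below.

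Expression was compared among 3 canine mammary tumour cell lines. P114 came from an anaplastic mammary carcinoma, CMT-U229 from a benign mixed tumour, and CMT-U335 from a primary osteosarcoma that arose in mammary tissue. The labels give no treatment and no genetic change, and each diagnosis stands on a single line, so a difference between lines cannot be told apart from one between tumour types. RNA of cells near confluence was hybridised to 15 two-colour cDNA arrays, 5 for each pair of lines, with the dyes exchanged within a pair. Every value below is a log2 ratio of the line named first over the line named second, and a two-colour ratio gives no level of a gene within a line. Which dye is the numerator was not stated and was read as Cy5, so all directions given here are likely but not settled. The labels number the 5 arrays of a pair as biological replicates, but according to the series design each pair held dye swaps and 1 or more biological replicates. P-values therefore measure the spread between arrays, some of which may be repeats of the same RNA. Couples of opposite dye order that deviated together were replicates 1 with 3 and 4 with 5 in P114 against CMT-U335, 1 with 3 and 2 with 5 in P114 against CMT-U229, and 2 with 3 and 4 with 5 in CMT-U229 against CMT-U335. The median share of a gene's variation that lay within couples was 0.283, 0.0587 and 0.0714 in these pairs. It was taken over 107, 167 and 117 genes with much variation and little dye effect, and was largest for P114 against CMT-U335. Because the couples were picked for deviating together, low shares are partly built in by that choice. No share for other couplings is given for comparison, so the values cannot decide whether the couples are true dye swaps. Averaging these apparent swaps before the fit is given below where it ended a call of a gene described array by array.

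Among markers of other cell types and of each line's tissue, 4 epithelial genes were measured and all 4 were called higher in P114 than in CMT-U335, with EPCAM at 3.55 ± 0.154 (mean ± SE, 5 arrays). Of 4 bone genes, 2 were called higher and 1 lower in the same pair. SPP1, the bone protein osteopontin, was at 4.12 and COL1A2, a chain of type I collagen, at -1.39, so with Cy5 as the numerator SPP1 was higher in P114. With the numerator turned, it would be higher in CMT-U335, the line from the osteosarcoma, and the epithelial genes would be lower in P114. In P114 against CMT-U229, 2 epithelial genes and 2 bone genes were called higher and 0 lower, with SPARC at 1.33 and COL1A2 at 2.06. In CMT-U229 against CMT-U335, 3 epithelial genes were called higher and 0 lower, and 1 bone gene was called in each direction. Of 5 mesenchymal genes, 0 were called higher and 2 lower in P114 against CMT-U335, 2 higher and 0 lower in P114 against CMT-U229 (DCN at 0.90 and S100A4 at 1.54), and 0 higher and 4 lower in CMT-U229 against CMT-U335. CD14 was the only gene called among the 5 leukocyte markers measured, at 0.36 in P114 against CMT-U335 and 0.50 in P114 against CMT-U229, and none of the 2 endothelial and 2 muscle markers was called in a pair. Of 2 basal and myoepithelial genes, MYLK, the myosin kinase of contractile cells, was called, at -2.03 in P114 over CMT-U229 and 2.22 in CMT-U229 over CMT-U335, and no adipocyte marker was measured. The part of these differences in the carrier results was not tested. In RNA pooled from whole cultures, fewer cells of a kind and less RNA per cell cannot be told apart. Before the arrays were turned, the correlation over all genes was 0.196 to 0.497 where a pair's dyes were in the same order and -0.349 to 0.000149 where they were exchanged.

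The 89 genes fell into 36 families, of which 14 had a single measured member. The largest was family 25, the carriers of the inner mitochondrial membrane, with 15 genes, followed by family 22, carriers of organic cations and anions, with 7. By solute, 17 genes carry amino acids, peptides or taurine, 15 work in mitochondria, 12 carry inorganic ions such as sodium, protons, bicarbonate, phosphate or magnesium, and 9 carry organic ions and drugs. A further 8 carry vitamins, nucleosides, nucleobases or choline, 8 carry monocarboxylates, bile acids or fatty acids, 6 carry sugars or urate, 6 carry zinc or iron, and 3 are nucleotide sugar carriers or their relatives. Family 66, lysosomal and little-studied proteins, had 2. The other 3 genes only bear a carrier's name. SLC9A3R1 and SLC9A3R2 encode the scaffolds that anchor sodium-proton exchangers, and SLC2A4RG encodes a transcription regulator of a glucose carrier gene.

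Most carrier genes were near a ratio of 1 in every pair. Intensities were not analysed, so such a ratio does not tell equal expression from little expression in both lines. With limma and Benjamini-Hochberg adjustment over all 5246 genes at a threshold of 0.05, 18 of the 89 genes (20.2%) were called in at least 1 pair, against 29.9% of all genes, and 71 were called in none. Among these 71, means lay between -0.74 and 0.68, and 65 had all of their means within 0.5 of 0. Of the 18 called genes, 9 were called in 1 pair (10.1% of the carrier genes, against 14.7% of all genes), 9 in 2 pairs (10.1%, against 13.4%) and 0 in all 3 (0%, against 1.79%). Of the 27 calls, 21 were higher and 6 lower in the line named first, where the 2462 calls of all genes held 1048 higher and 1414 lower. They lay in 13 families, and in 26 of them all 5 arrays had the same sign.

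In P114 against CMT-U335, 14 carrier genes were called (15.7%), where 22.3% of all genes tested were. In this pair 12 were higher in P114 (13.5%, against 7.89% of all genes) and 2 were lower (2.25%, against 14.4%). The carrier genes' median was 0.0446, against -0.0228 over all genes, and 58 of them (65.2%) had a mean above 0, against 45.2% of all genes. A change of at least 2-fold was called for 1 carrier gene (1.12%), against 3.72% of all genes. The number called fell to 8 without replicate 3 or without replicate 4, and it was also 8 with apparent dye swaps averaged.

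In P114 against CMT-U229, 6 carrier genes were called (6.74%), where 7.3% of all genes were. They divided evenly, with 3 higher (3.37%, against 3.32% of all genes) and 3 lower (3.37%, against 3.98%). Changes of at least 2-fold were called for 2 (2.25%, against 1.77% of all genes), both lower in P114. The median was 0.0192 for carrier genes and -0.0113 for all genes.

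In CMT-U229 against CMT-U335, 7 carrier genes were called (7.87%), where 17.3% of all genes were. Higher calls numbered 6 (6.74%, against 8.77% of all genes), with 1 lower (1.12%, against 8.58%). A change of at least 2-fold was called for 3 (3.37%, against 2.94% of all genes). The median was 0.0229 for carrier genes and -0.00504 for all genes. The number called fell to 4 without replicate 2 or without replicate 5.

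**Figure D1:**
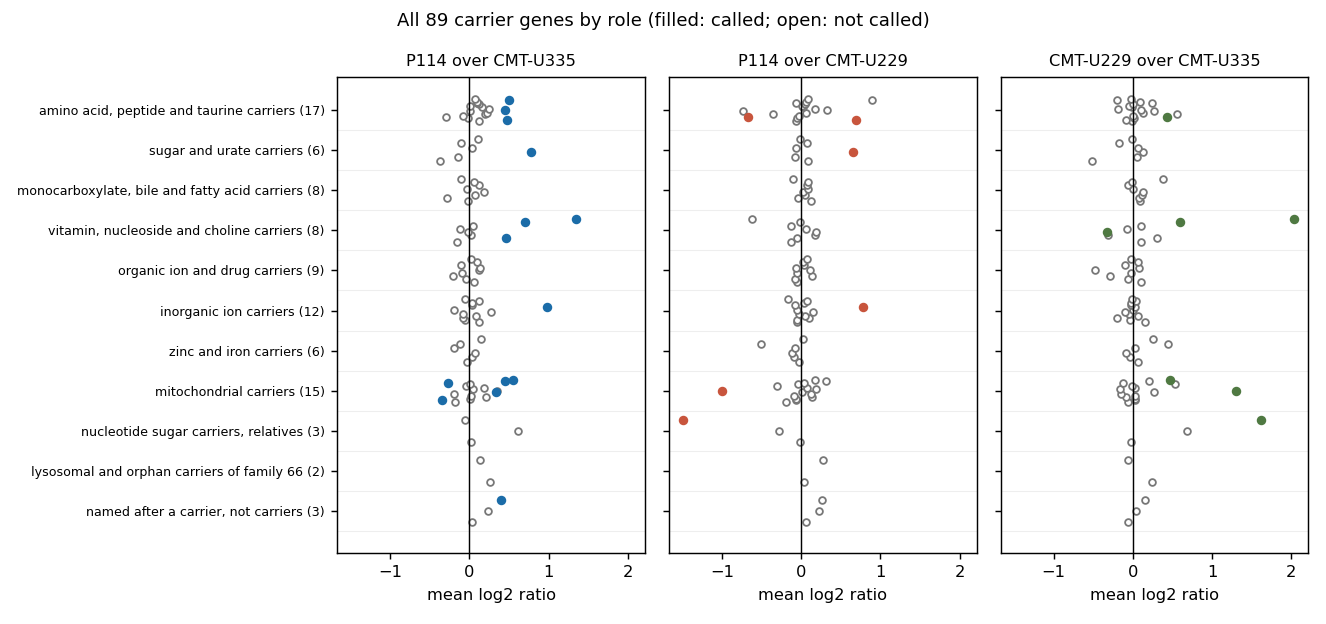
Mean log2 ratio of 5 arrays (x axis) for all 89 genes, grouped by role (rows, with the number of genes), in P114 over CMT-U335, P114 over CMT-U229 and CMT-U229 over CMT-U335. Filled points were called and open points were not. Most points lie near 0. The carriers of monocarboxylates, organic ions, zinc and iron and family 66 hold no called gene, where 29.9% of all genes were called in at least 1 pair.

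Vitamin carriers held the largest ratio among carrier genes. SLC5A6 encodes the sodium-dependent multivitamin transporter, which takes up biotin, pantothenate and lipoate. On the 5 arrays of CMT-U229 over CMT-U335 its log2 ratios were 1.86, 1.65, 1.77, 2.28 and 2.65. All 5 lay far above 0, with a mean of 2.04 ± 0.153 (SE, 5 arrays), a 4.12-fold difference with a limma adjusted p of 0.000345. In P114 over CMT-U335 they were 1.73, 1.38, 1.96, 1.06 and 0.63, again all above 0, with a mean of 1.35 ± 0.186 (2.55-fold, adjusted p = 0.00224). In P114 over CMT-U229 the values were -0.79, 0.03, -0.77, -1.19 and -0.38. Here 4 arrays lay below 0 and 1 at about 0, and the mean of -0.62 ± 0.168 did not pass the test (adjusted p = 0.0775). CMT-U335 thus differed from both other lines, with the lower SLC5A6 ratio if Cy5 is the numerator and the higher one if it is Cy3. The order of the other 2 lines was not resolved.

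SLC52A2, a riboflavin transporter, was called in the same pairs. Its ratios of P114 over CMT-U335 were 0.23, 0.40, 0.93, 1.17 and 0.76. The mean was 0.70 ± 0.142 (adjusted p = 0.0113). In CMT-U229 over CMT-U335 they were 1.17, 0.39, 0.17, 0.45 and 0.81, with a mean of 0.60 ± 0.145 (adjusted p = 0.0307). All 10 of these values were above 0, but they differed in size between arrays, and the second call was lost without replicate 2, 4 or 5 (adjusted p = 0.0677, 0.0603 and 0.109) and with the apparent swaps averaged (0.0957). For P114 over CMT-U229 the values 0.04, 0.10, 0.21, 0.10 and -0.49 fell on either side of 0, with a mean of -0.01.

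SLC29A1, the equilibrative carrier of nucleosides, was called in P114 against CMT-U335 (0.46 ± 0.105, adjusted p = 0.0182), with 0.30 ± 0.110 in CMT-U229 against CMT-U335 (adjusted p = 0.116). SLC44A1, a choline transporter, was the only gene of this group called lower, in CMT-U229 against CMT-U335 (-0.33 ± 0.0772, adjusted p = 0.0272). That call did not hold when any 1 of the 5 arrays was left out (adjusted p = 0.0542 to 0.0923). The other vitamin, nucleobase and choline carriers were SLC23A2 for vitamin C, SLC43A3 for purine nucleobases, SLC44A5 and SLC46A2, and none was called in a pair.

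**Figure D2:**
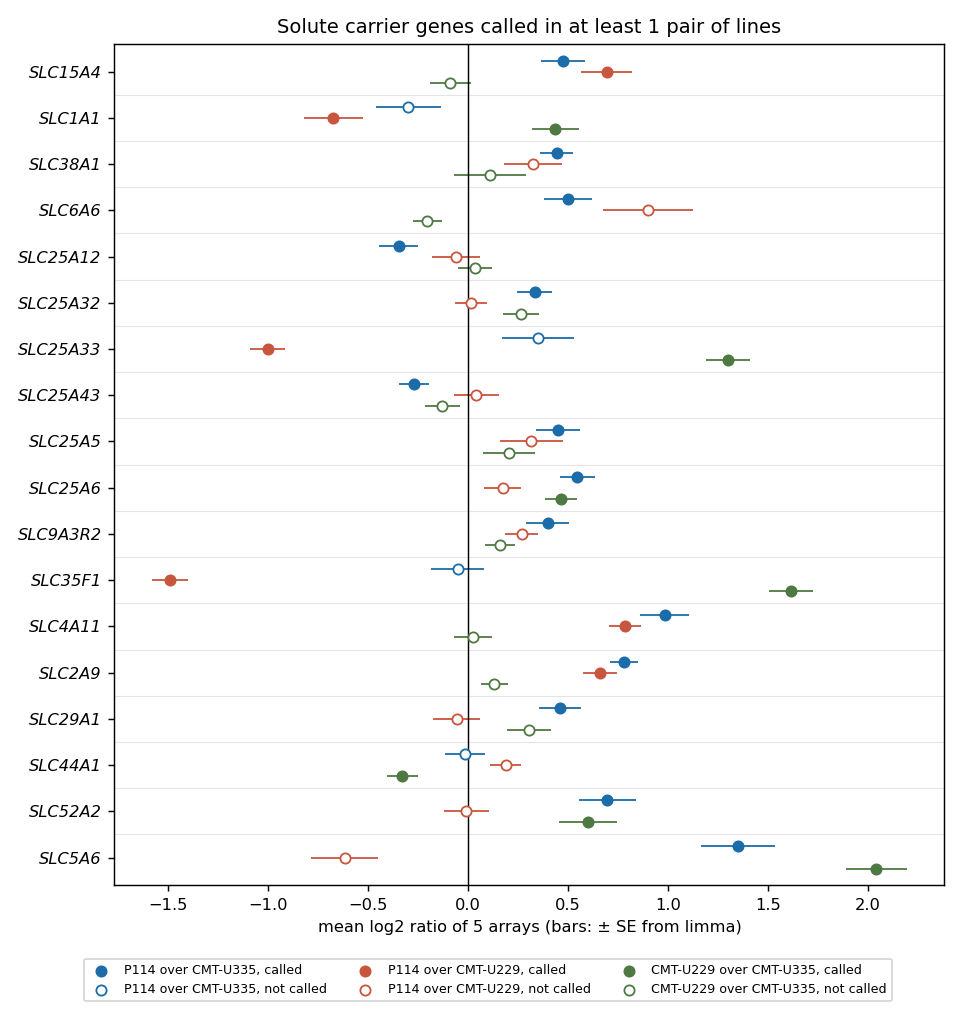
Mean log2 ratio of 5 arrays (x axis, bars ± SE from limma) for the 18 genes called in at least 1 pair (rows, ordered by role), in P114 over CMT-U335, P114 over CMT-U229 and CMT-U229 over CMT-U335. Filled points passed an adjusted p of 0.05. SLC5A6 reached 2.04 in CMT-U229 over CMT-U335, and SLC35F1 -1.49 in P114 over CMT-U229.

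SLC35F1, a relative of the nucleotide sugar carriers whose solute is not established, stood apart in CMT-U229. For CMT-U229 over CMT-U335 its ratios were 1.41, 1.53, 1.71, 2.04 and 1.38. The mean was 1.62 ± 0.109, a 3.06-fold difference (adjusted p = 0.000213). In P114 over CMT-U229 they were -1.71, -1.57, -1.55, -1.41 and -1.22, with a mean of -1.49 ± 0.091, a 2.81-fold difference (adjusted p = 0.000185). The arrays were thus tight in both pairs with CMT-U229. For P114 over CMT-U335 the values 0.53, -0.09, -0.29, -0.07 and -0.34 lay around 0 (mean -0.05, adjusted p = 0.827). SLC35F1 carried a dye effect of -0.19 ± 0.0495 on the log2 scale (adjusted p = 0.0235), and with a dye term in the fit its means of 1.66 and -1.52 were still called. Of the rest of its family, SLC35A2, the Golgi carrier of UDP-galactose, stayed between -0.03 and 0.03, and SLC35B1, of the endoplasmic reticulum, was not called and is described with the widely spread genes.

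Of the 15 mitochondrial carriers, 6 were called in at least 1 pair (40%, against 29.9% of all genes), in both directions. Among the vitamin, nucleoside and choline carriers the count was 4 of 8, and among those of amino acids, peptides and taurine 4 of 17. SLC25A33, which moves pyrimidine nucleotides into mitochondria in human cells, was also called in both pairs with CMT-U229, in the same directions as SLC35F1. Its ratios of CMT-U229 over CMT-U335 were 1.22, 1.12, 1.11, 1.77 and 1.27, with a mean of 1.30 ± 0.110 (2.46-fold, adjusted p = 0.000548). For P114 over CMT-U229 they were -1.07, -0.99, -1.24, -0.77 and -0.95, with a mean of -1.004 ± 0.0880 (2.01-fold, adjusted p = 0.000862). No array of either pair came near 0. In P114 over CMT-U335 the values 1.04, 0.16, 0.73, -0.14 and -0.05 were spread from below 0 to above 1, and the mean of 0.35 ± 0.182 did not pass (adjusted p = 0.233). Its close relative SLC25A36, also a pyrimidine nucleotide carrier, had means of 0.05, 0.18 and -0.16 in P114 over CMT-U335, P114 over CMT-U229 and CMT-U229 over CMT-U335, none of them called.

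The ADP/ATP carriers, which exchange ATP made in mitochondria for cytosolic ADP, were called higher in P114 than in CMT-U335. SLC25A6 was at 0.55 ± 0.0876 (adjusted p = 0.00425), and it was also higher in CMT-U229 than in CMT-U335, at 0.47 ± 0.0797 (adjusted p = 0.00786). Both of its probes were called in each of these pairs. SLC25A5 was at 0.45 ± 0.110 in P114 against CMT-U335 (adjusted p = 0.0236), a call lost without replicate 1, 2, 3 or 4 (adjusted p = 0.0599 to 0.0763). The sequences of these genes are much alike, so cDNA spots for either may take up both transcripts, which was not tested.

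SLC25A32, which carries folate or FAD into mitochondria, was higher in P114 than in CMT-U335 (0.33 ± 0.0870, adjusted p = 0.0301). SLC25A12, the aspartate-glutamate carrier of the malate-aspartate shuttle, was lower (-0.35 ± 0.0958, adjusted p = 0.0371), as was SLC25A43, a carrier with no established solute (-0.27 ± 0.0750, adjusted p = 0.0389). The SLC25A32 call was lost without replicate 2, 3, 4 or 5 (adjusted p = 0.0600 to 0.0970) and the SLC25A43 call without replicate 1, 3, 4 or 5 (0.0920 to 0.121). The SLC25A12 call was lost without any 1 array (0.0549 to 0.0880). SLC25A13, which has the same role as SLC25A12, had means of 0.01, -0.07 and 0.03 over the 3 pairs. The phosphate carrier SLC25A3, the oxoglutarate carrier SLC25A11 and the iron carrier SLC25A37 were not called, and the means of these 3 ranged from -0.19 to 0.19.

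SLC4A11 was the only called gene among the 12 carriers of inorganic ions (8.33%, against 29.9% of all genes called in at least 1 pair), and it was called in both pairs with P114. It encodes a transporter of the bicarbonate carrier family that conducts protons and is best known from the corneal endothelium. For P114 over CMT-U335 its ratios were 1.19, 0.47, 1.26, 0.94 and 1.06, with a mean of 0.98 ± 0.122 (1.98-fold, adjusted p = 0.00140). In P114 over CMT-U229 they were 0.90, 0.64, 0.94, 0.80 and 0.64, with a mean of 0.78 ± 0.0810 (1.72-fold, adjusted p = 0.00186). All 10 values were above 0.4. In CMT-U229 over CMT-U335 the values -0.14, 0.03, -0.20, 0.07 and 0.36 centred on 0, with a mean of 0.02 (adjusted p = 0.919). The other 11 genes of the group had means between -0.20 and 0.27 over the 3 pairs with 0 calls. They included the sodium bicarbonate cotransporter SLC4A4 and the sodium-proton exchangers SLC9A2, SLC9A5 and SLC9A9.

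SLC2A9, which carries urate and whose loss in dogs leads to high urate in urine, had the same pattern with little spread between arrays. Its ratios were 0.83, 0.83, 0.69, 0.69 and 0.84 in P114 over CMT-U335 (mean 0.78 ± 0.0704, 1.71-fold, adjusted p = 0.000403). For P114 over CMT-U229 they were 0.45, 0.79, 0.67, 0.56 and 0.83 (mean 0.66 ± 0.0846, 1.58-fold, adjusted p = 0.00508). For CMT-U229 over CMT-U335 they were 0.24, 0.01, 0.16, 0.06 and 0.17 (mean 0.13 ± 0.0669, adjusted p = 0.269). The gene value is an average of 4 probes that did not read alike. The other genes described array by array had 1 probe each, so they have no second probe to compare. For P114 over CMT-U335, 3 probes were called higher at 0.66, 1.14 and 1.37, and the other gave -0.06. The same 3 probes were called for P114 over CMT-U229, at 0.57, 1.09 and 1.02, and the remaining probe again lay near 0, at -0.03. In both pairs the averaged ratio thus lay below 2 of the probes and above the other 2. With the apparent dye swaps averaged, SLC2A9 in P114 against CMT-U229 had an adjusted p of 0.0626. The glucose carrier SLC2A8, the sugar carriers SLC5A10 and SLC50A1 and the glucose-6-phosphate carrier SLC37A4 had means from -0.18 to 0.11 and were not called, and SLC2A1 is described with the widely spread genes.

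**Figure D3:**
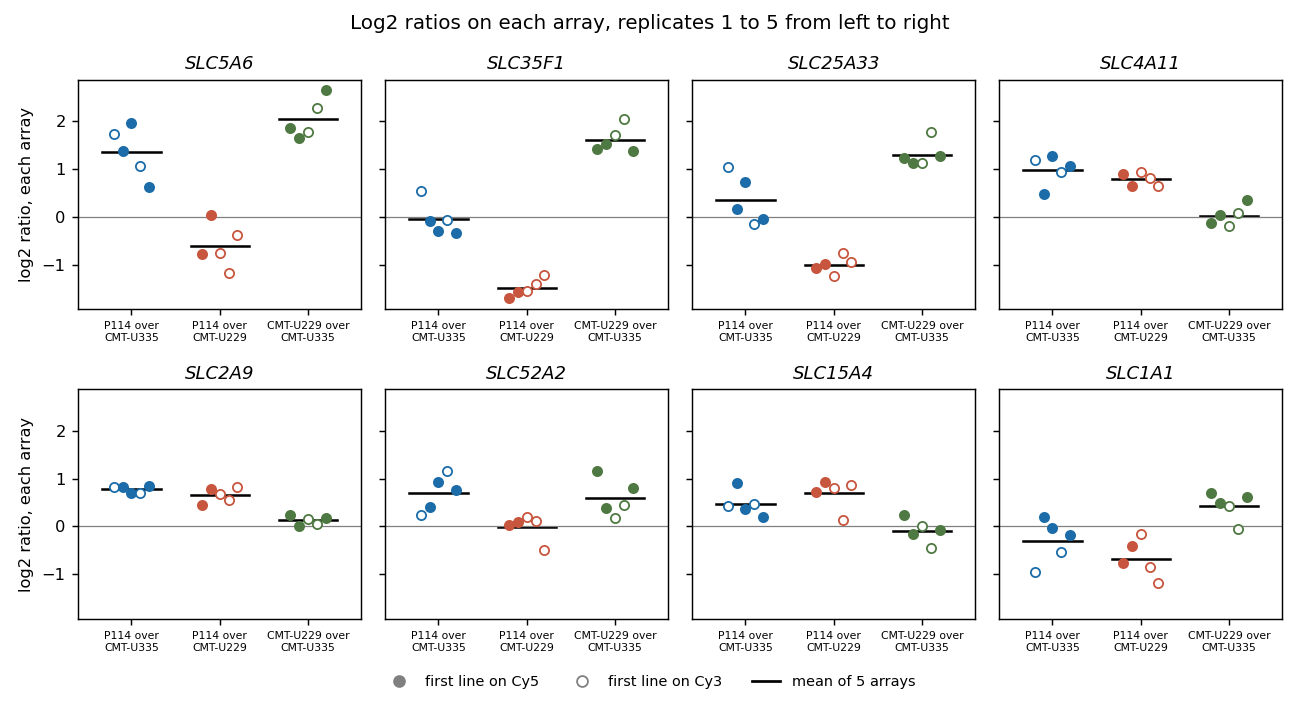
Log2 ratio on each of 5 arrays (points, replicates 1 to 5 from left to right, filled where the first line was on Cy5) with the mean (line), for the 8 genes described array by array, in P114 over CMT-U335, P114 over CMT-U229 and CMT-U229 over CMT-U335. SLC4A11 and SLC2A9 lie above 0 in both pairs with P114, and SLC35F1 and SLC25A33 lie away from 0 in both pairs with CMT-U229.

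Among the 17 carriers of amino acids, peptides and taurine, 4 were called in at least 1 pair (23.5%, against 29.9% of all genes). Of these, 3 were called higher in P114 in at least 1 pair, and SLC1A1 was called higher in CMT-U229 in both of its pairs. SLC15A4, a lysosomal exporter of histidine and small peptides, had ratios of 0.42, 0.91, 0.37, 0.48 and 0.19 in P114 over CMT-U335 (mean 0.47 ± 0.110, adjusted p = 0.0189). In P114 over CMT-U229 they were 0.71, 0.94, 0.80, 0.14 and 0.87 (mean 0.69 ± 0.126, adjusted p = 0.0203). All 10 values were above 0, although replicate 4 of the second pair stood well below its other 4. In CMT-U229 over CMT-U335 they were 0.23, -0.17, 0.01, -0.44 and -0.08 (mean -0.09, adjusted p = 0.657). The call against CMT-U335 was lost without replicate 4 (adjusted p = 0.0572), and the call against CMT-U229 without replicate 1, 2, 3 or 5 (adjusted p = 0.0683 to 0.0805). With the apparent dye swaps averaged the adjusted p were 0.0556 against CMT-U335 and 0.228 against CMT-U229.

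SLC1A1 encodes a sodium-driven carrier of glutamate that also brings in cysteine. Its ratios of P114 over CMT-U229 were -0.77, -0.41, -0.16, -0.85 and -1.19, all below 0, with a mean of -0.68 ± 0.149 (adjusted p = 0.0399). For CMT-U229 over CMT-U335 they were 0.69, 0.50, 0.43, -0.06 and 0.62, with 4 above 0 and a mean of 0.44 ± 0.117 (adjusted p = 0.0444). In P114 over CMT-U335 they ran from -0.96 to 0.20 (mean -0.30, adjusted p = 0.254). Both calls were near the threshold. The first was lost without replicate 1, 2, 4 or 5 (adjusted p = 0.0712 to 0.134) and the second without replicate 1, 2, 3 or 5 (adjusted p = 0.109 to 0.145). Averaging the apparent swaps also ended them (adjusted p = 0.0781 and 0.0760).

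SLC38A1, a sodium-driven carrier of glutamine, was higher in P114 than in CMT-U335 (0.44 ± 0.0828, adjusted p = 0.00805). Its relatives SLC38A2 and SLC38A3 had means of 0.25 and 0.15 in that pair and were not called. SLC6A6, the taurine carrier, was called in the same pair (0.50 ± 0.119, adjusted p = 0.0214), a call lost without replicate 1, 2 or 3 (adjusted p = 0.0504 to 0.0707). Its mean in P114 over CMT-U229 was larger, 0.90 ± 0.224, and missed the threshold (adjusted p = 0.0588). It rests on 2 probes that differed in size. For P114 over CMT-U335 the first gave 0.28 ± 0.125, not called, and the second 0.71 ± 0.148, called. For P114 over CMT-U229 they gave 0.40 ± 0.162 and 1.39 ± 0.293, and again only the second was called (probe-level adjusted p = 0.0320). The neutral amino acid carrier SLC1A4, the cationic amino acid carrier SLC7A1 and the branched-chain amino acid carrier SLC43A2 had means between -0.05 and 0.23 over the 3 pairs and were not called.

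Some small groups had no gene called in any pair, where 29.9% of all genes were called in at least 1 pair. The 2 genes of family 66 had means from -0.07 to 0.28. The 8 carriers of monocarboxylates, bile acids and fatty acids, among them SLC10A1, SLC10A2, SLC16A4, SLC27A2 and SLC27A5, had means from -0.28 to 0.39. The 9 carriers of organic ions and drugs, 7 of them in family 22, had means from -0.47 to 0.14. The 6 zinc and iron carriers had means from -0.50 to 0.44. Both ends of that range belonged to SLC39A8, a zinc and manganese importer. It was at -0.50 ± 0.133 in P114 over CMT-U229 (adjusted p = 0.0721) and at 0.44 ± 0.149 in CMT-U229 over CMT-U335 (adjusted p = 0.0919). SLC40A1, the iron exporter ferroportin, was at 0.15, 0.02 and 0.25 in P114 over CMT-U335, P114 over CMT-U229 and CMT-U229 over CMT-U335. Probes taken by themselves gave a call for 1 of its 2 probes in CMT-U229 over CMT-U335 (0.36 ± 0.0970, adjusted p = 0.0446), where the other read 0.15 ± 0.169. SLC16A13, of the monocarboxylate family, likewise had 1 of 2 probes called there (0.32 ± 0.0746, adjusted p = 0.0272), and the other read -0.06 ± 0.0756. Of the genes that only bear a carrier's name, SLC9A3R2 was higher in P114 than in CMT-U335 (0.40 ± 0.107, adjusted p = 0.0343). A dye term in the fit ended that call, as did leaving out replicate 3, 4 or 5 (adjusted p = 0.101 to 0.110). SLC9A3R1 was at 0.24 ± 0.0781 there and was not called (adjusted p = 0.0676).

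The closed loop of 3 pairs gives each carrier gene a direct ratio of P114 over CMT-U335 and an indirect one, the sum of the other pairs. SLC5A6 had 1.35 directly and 1.42 indirectly. SLC2A9 had 0.78 and 0.79, SLC4A11 0.98 and 0.81, SLC52A2 0.70 and 0.59, and SLC25A33 0.35 and 0.29. Over the 89 genes the direct minus the indirect ratio ranged from -0.49 to 0.48, with a median size of 0.0817, against 0.0844 over all genes. In the limma fit over 15 arrays 0 of 5246 genes (0%) were called for a failure to close, and at an unadjusted p under 0.05 the counts were 0 of 89 carrier genes and 17 of all genes (0.324%). Chance alone would put about 1 in 20 genes under 0.05. The test thus reached low p-values too rarely for its lack of calls to show closure. The widest gaps were those of SLC25A40 (0.00 directly and 0.49 indirectly) and SLC22A18 (0.12 and -0.36). The tests share no array between direct and indirect ratios, but the same lines enter both.

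**Figure D4:**
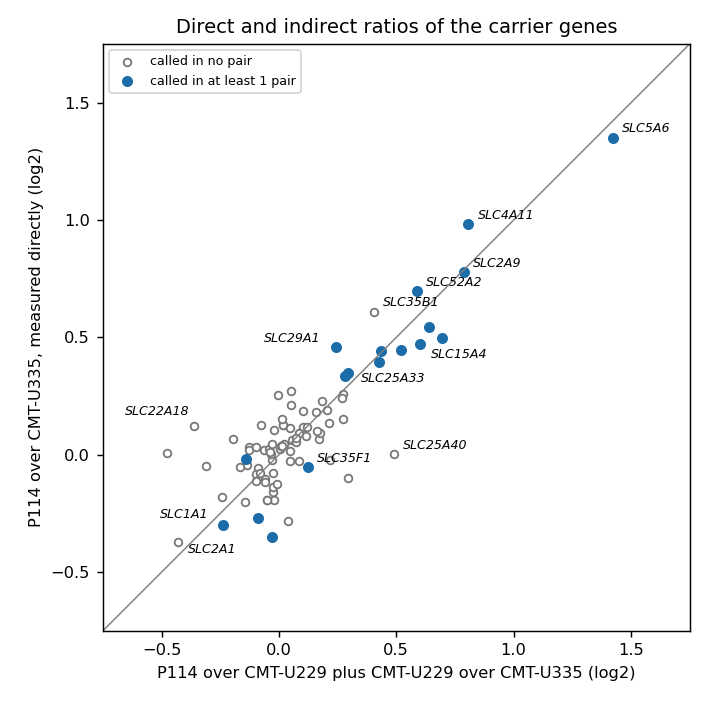
Direct log2 ratio of P114 over CMT-U335 (y axis) against the sum of P114 over CMT-U229 and CMT-U229 over CMT-U335 (x axis) for the 89 genes, with the line of equal values. SLC5A6, at 1.35 directly and 1.42 indirectly, and the other genes with large ratios lie near the line, and SLC25A40 and SLC22A18 lie farthest from it.

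A few carrier genes varied widely between arrays of a pair, and they were chosen for this after their values were seen. An SD between arrays above 1 occurred for 0 carrier genes in P114 against CMT-U335, 5 in P114 against CMT-U229 and 5 in CMT-U229 against CMT-U335 (5.62% in each of the last pairs). Over all genes the shares were 1.96%, 1.96% and 1.91%. SLC2A1, the widespread glucose carrier of the cell surface, had the largest SD. In CMT-U229 over CMT-U335 it read -4.73, -0.21, -0.29, 1.80 and 0.86. In P114 over CMT-U229 it read 0.03, 2.31, 0.29, -1.48 and -0.74, and in P114 over CMT-U335 -1.86, -0.65, 0.53, -0.08 and 0.19. Signs differed within all 3 pairs, none of its means was called, and its ratio between any of the lines was not resolved here.

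SLC1A3, a glutamate carrier, read 0.21, -0.35, -2.93, -0.60 and 1.90 in P114 over CMT-U229, and 0.63, 0.68, -0.28, -0.96 and 2.74 in CMT-U229 over CMT-U335. SLC35B1, a nucleotide carrier of the endoplasmic reticulum, read 0.24, -0.72, 1.98, -2.94 and 0.08 in P114 over CMT-U229. Neither was called in a pair. SLC25A40, a mitochondrial carrier of glutathione, has 2 probes, and the spread came from 1 of them, with values between -2.10 and 2.03 in P114 over CMT-U229 and between -1.28 and 4.34 in CMT-U229 over CMT-U335. The other lay between -0.44 and 0.50 and between -0.21 and 0.28 in these pairs. The wide SD of SLC5A12, a lactate carrier, came from 1 array of CMT-U229 over CMT-U335, where 1 of its 2 probes read 4.84. SLC25A38, the mitochondrial glycine carrier, moved with the dyes instead, with a dye effect of 0.65 ± 0.136 over 15 arrays (adjusted p = 0.00853).

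**Figure D5:**
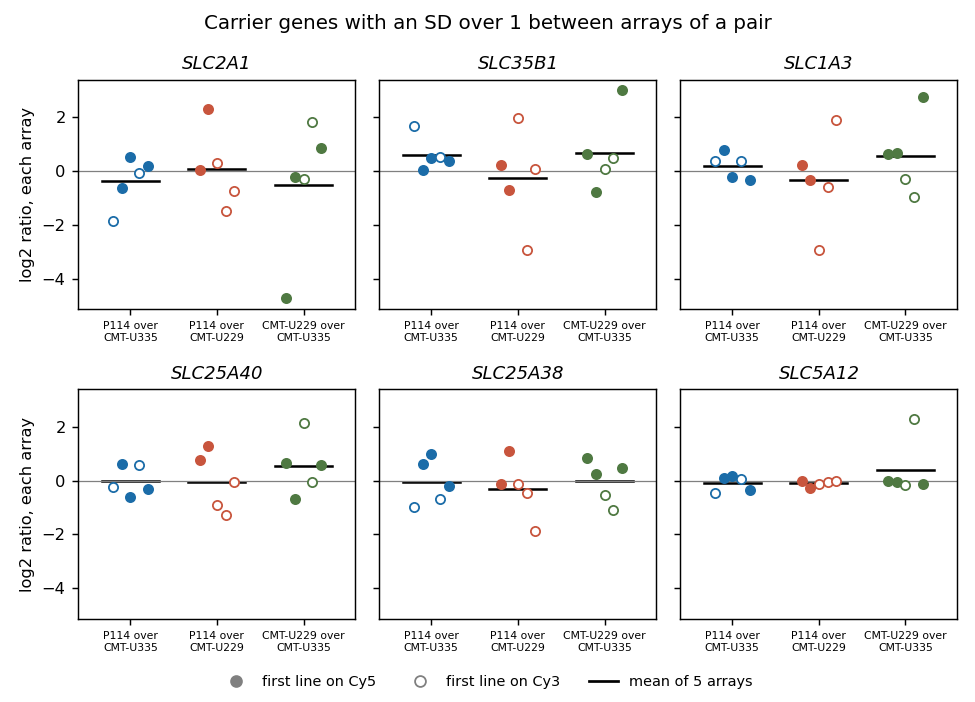
Log2 ratio on each of 5 arrays (points, replicates 1 to 5 from left to right, filled where the first line was on Cy5) with the mean (line) for the 6 genes with an SD above 1 between arrays of at least 1 pair, in P114 over CMT-U335, P114 over CMT-U229 and CMT-U229 over CMT-U335. SLC2A1 runs from -4.73 to 1.80 in CMT-U229 over CMT-U335.

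A dye effect over the 15 arrays was called for 12 of the 89 carrier genes (13.5%), against 11.7% of all genes. SLC35F1 was the only gene among them that was also called between lines. The largest after SLC25A38 were -0.41 for SLC44A5, 0.35 for SLC46A2 and -0.35 for SLC47A2, and these genes were called in no pair.

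In RefSeq's table for assembly UU_Cfam_GSD_1.0, the 89 genes lay on 33 chromosomes, with at most 7 on any of them. Dog chromosome 13 held 3, of which SLC52A2 and SLC25A32 were higher in P114 than in CMT-U335 by the values above, and SLC4A4 was at 0.03 ± 0.107 (adjusted p = 0.884). Over all genes 7.89% were called higher in that pair. Of the members on the X chromosome, SLC25A5 and SLC25A6 were called higher there, SLC25A43 lower, and SLC35A2 was not called. Chromosome 13 was picked by name, and no chromosome was tested as a set.

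Other genes of membrane transport were counted by list, and the counts are to be read against the shares of all genes. In P114 against CMT-U335, 7.89% of all genes were called higher and 14.4% lower. These shares were 3.32% and 3.98% in P114 against CMT-U229, and 8.77% and 8.58% in CMT-U229 against CMT-U335. A list of 23 genes held subunits and regulators of sodium, proton and vacuolar pumps, which build the gradients that many carriers use. Of the alpha and beta chains of the sodium pump it held only ATP1B3. From this list, 1 gene was called higher and 2 lower in P114 against CMT-U335, and 0 in P114 against CMT-U229. In CMT-U229 against CMT-U335, 2 were higher and 1 lower. Of all genes, 22.3% and 17.3% were called in the first and last pairs, and a difference of the 3 called of 23 from these shares was not tested. ATP6V1C1, of the vacuolar proton pump, was at 0.77 in P114 over CMT-U335 and 0.67 in CMT-U229 over CMT-U335, whereas ATP6V1B2 of the same pump was at -0.69 and -0.42. ATP6V1D was at -1.07 in P114 over CMT-U335.

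The list of 14 partners and scaffolds of carriers includes SLC9A3R1 and SLC9A3R2, which were already counted among the carrier genes above. Of the 14, 2 were called higher and 0 lower in P114 against CMT-U335 (22.3% of all genes called). These were SLC9A3R2, by the call already given above, and ezrin. In P114 against CMT-U229, 1 was called higher and 0 lower. In CMT-U229 against CMT-U335, 1 was called in each direction. Ezrin (EZR), which ties the SLC9A3R scaffolds to actin, was called higher in all 3 pairs, at 1.47 in P114 over CMT-U335, 0.57 in P114 over CMT-U229 and 0.44 in CMT-U229 over CMT-U335. ARL6IP5, which binds the glutamate carrier SLC1A1 in rodents, was called only in CMT-U229 over CMT-U335, at -0.66, where SLC1A1 was at 0.44. In P114 over CMT-U335, ARL6IP5 was at -0.52 and SLC1A1 at -0.30, neither of them called. In P114 over CMT-U229, ARL6IP5 was at 0.27, not called, and SLC1A1 at -0.68. A link between these genes was not tested.

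Genes of the ABC family were taken by their symbols, and not all of them are exporters or transporters. Of these 19 genes, 2 were called higher and 3 lower in P114 against CMT-U335 (22.3% of all genes called), 3 higher and 0 lower in P114 against CMT-U229 (7.3%), and 1 higher and 3 lower in CMT-U229 against CMT-U335 (17.3%). The drug exporter ABCB1 was at 0.99, 1.89 and -0.59 in these pairs, and its neighbour ABCB4, a phospholipid exporter, at -0.95, 0.56 and -1.47. Among 10 other genes of mitochondrial transport, 1 was called higher and 4 lower in P114 against CMT-U335, 0 higher and 1 lower in P114 against CMT-U229, and 2 higher and 1 lower in CMT-U229 against CMT-U335, against the same shares of all genes. CPT2, of fatty acid import, was at -0.79 in P114 over CMT-U335, and MPC2, a subunit of the pyruvate carrier, at -0.65.

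Of all genes, 22.3%, 7.3% and 17.3% were called in the 3 pairs. Of 9 genes of the amino acid response and serine synthesis, 1 was called higher and 4 lower in P114 against CMT-U335, 0 higher and 1 lower in P114 against CMT-U229, and 1 in each direction in CMT-U229 against CMT-U335. ALDH1L2 was called lower in all 3 pairs, at -2.93, -2.12 and -0.89. NUPR1 was called higher, at 0.95 in P114 over CMT-U335 and 1.00 in CMT-U229 over CMT-U335. ASNS, which makes asparagine, was at -0.55 in P114 over CMT-U335. Of 9 other genes of zinc, copper and iron handling, 4 were called higher and 0 lower in P114 against CMT-U335, 2 in each direction in P114 against CMT-U229, and 4 higher and 3 lower in CMT-U229 against CMT-U335. The metallothionein MT2A was at 3.22 in P114 over CMT-U335, while none of the 6 zinc and iron carriers was called in a pair. Of 29 genes listed as water and ion channels, 2 were called higher and 3 lower, 1 higher and 0 lower, and 3 higher and 2 lower in the 3 pairs in the same order. That count includes TMEM165, which entered by its name and is not a channel, at 1.87, 0.49 and 1.41. TMEM160, TMEM161B, TMEM167A and TRPC4AP also entered by name, are not channels and were not called. Of the called channels, KCNMB4 was at -1.10 in P114 over CMT-U335 and -1.17 in CMT-U229 over CMT-U335. In the same pairs KCNS3 was at -0.81 and -1.01, and SCN8A at 0.95 and 1.06. The single organic anion transporting polypeptide measured was not called.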

How the data were processed

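The authors' deposited table held log2 ratios of the dyes for 15 arrays, which had been log transformed and normalized, per the series design text. The method of normalization, the log base and the numerator were not given in the sources used here. Base 2 and Cy5 over Cy3 were assumed. Array medians lay from -0.00671 to 0.0133. Intensities were not analysed here, so the depth is unknown, and precision is limited by how many arrays there are. The platform annotation named 7694 of 22176 probes, and 7340 symbols were updated through RefSeq's table for assembly UU_Cfam_GSD_1.0.

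Arrays were turned by their dyes and probes averaged per gene (68 carrier genes had 1 probe, 21 had more and at most 4). Each pair was fitted alone with limma 3.58.1 in R 4.3.3, the mean of 5 arrays against 0, two-sided, with p-values adjusted by Benjamini-Hochberg over 5246 genes (threshold 0.05). limma replaced SAM, which the series design names. A gene needed values on at least 3 arrays. Loop closure and dye effects were fitted over all 15 arrays. The code was tested on simulated data.

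Called genes were printed with every array where the mean reached 1 or -1, with the next by size added up to 8. Members, lists and rules were chosen with earlier results of these data known. Alternatives were other normalizations, filters, fits, thresholds, probe summaries, apparent dye swaps averaged, and each array left out.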

Additional observations from a re-analysis of the deposited data

Results flagged for a closer look

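The arrays were examined for the 27 calls and for the 8 pairs in which the genes described array by array were not called, 35 sets of 5 arrays in all. In 6 of them (17.1%) an array stood apart from the other 4 by Dixon's test, where chance gives about 1 in 20 and 5.91% of the 15737 sets over all genes had such an array. In P114 over CMT-U335, SLC25A12 was at -0.715 on replicate 1, against -0.307 to -0.168 on the others, and SLC29A1 was at 0.895 on replicate 3, against 0.285 to 0.427. In P114 over CMT-U229, SLC15A4 was at 0.137 on replicate 4, against 0.7098 to 0.938, and SLC52A2 was at -0.493 on replicate 5, against 0.0392 to 0.205. In CMT-U229 over CMT-U335, SLC25A33 was at 1.77 on replicate 4, against 1.11 to 1.27, and SLC44A1 was at -0.584 on replicate 2, against -0.310 to -0.238.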

How the results depend on the processing

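Of the 27 calls, 11 were kept under every alternative run and 0 changed sign. Those 11 were both calls each of SLC5A6, SLC35F1, SLC25A33, SLC4A11 and SLC25A6, and SLC2A9 in P114 against CMT-U335. The numbers of carrier genes called in P114 against CMT-U335, P114 against CMT-U229 and CMT-U229 against CMT-U335 were 14, 6 and 7. They became 8, 3 and 4 with apparent dye swaps averaged (all genes 839, 79 and 410, against 1169, 383 and 910), which keeps 15 calls. They were 5, 4 and 4 at a threshold of 0.01, and 19, 12 and 15 in a loop fit over all 15 arrays, which pools the spread. With 1 array left out they were 8 to 10, 4 to 6 and 4 to 6. In P114 against CMT-U229 the calls over all genes became 650 in a fit over all 15 arrays, 1056 in the loop fit and 202 to 408 with 1 array left out. Same-numbered arrays of different pairs correlated at -0.248 to 0.333, with 3 of 15 above 0.1, and 2 of 15 correlated best with their own number. Dye effects were not removed first. RNA shared by a line named second in a pair and first in another would correlate negatively, which this count could not pick up. Whether the numbers pair arrays was therefore not settled. With the replicate number as a block the counts were 10, 7 and 7, and 22 calls were kept. With a dye term 25 calls were kept.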
